A study of Canis lupus familiaris with 4 samples.

Results

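Ribosomal protein genes and proteasome genes of the dog were examined for captured, methylated DNA in a lymphoma line and its drug-resistant derivative. Members were taken by symbol alone: RPL or RPS followed by a number, without the RPS6K kinases, and every symbol beginning with PSMA, PSMB, PSMC, PSMD, PSME or PSMG. This gave 127 genes, of which 86 had at least 1 region in either line, and 222 of the 205668 regions listed in all. CLBL-1 was grown from a dog with diffuse large B-cell lymphoma and is labelled as without chemoresistance. CLBL-1 8.0 is its doxorubicin-resistant counterpart, kept in medium with 8 µM doxorubicin hydrochloride, while no doxorubicin is named for the medium of CLBL-1. Both lines are labelled as lymph node, tumour stage IV, and both were grown in RPMI medium with serum and antibiotics. Genomic DNA of each line was captured with a methyl-binding domain protein (MethylCap) and eluted in a low salt and a high salt fraction, giving 4 libraries, 1 per eluate and line. The deposited values are 1 list of regions per line, in which the eluates are not separated. There are no replicates, so no difference between the lines has a test, and every interval given covers counting error only. The depth of the libraries is unknown, so a region missing from a list does not show unmethylated DNA. The files hold no expression values, and the labelled cell type was not checked against markers.

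Ribosomal proteins of the large (RPL) and small (RPS) subunit assemble with ribosomal RNA into the machine that translates messenger RNA. The proteasome degrades ubiquitin-tagged proteins: PSMA and PSMB subunits form its barrel-shaped core, PSMC ATPases and PSMD subunits its regulatory particle, PSME proteins act as alternative activators, and PSMG proteins are chaperones for core assembly. Most of these genes are active in all cells and start within CpG islands, stretches dense in CpG that are usually unmethylated, while methylation that differs between cells often lies in the flanking shores. Some symbols taken by the rule encode no ribosomal or proteasome subunit, such as RPS19BP1, PSMC3IP, PSME3IP1 and the chaperone PSMD9. Some encode tissue-restricted paralogs, such as RPL10L and PSMA8 of the testis and PSMB11 of the thymus, as known from mouse and human. Ribosomal protein genes have many near-identical processed copies in mammalian genomes. No source used here says how reads that fit several places were treated, so regions within coding sequence of these genes are uncertain.

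Members had few regions, and more of them in CLBL-1 8.0. In CLBL-1, 50 of 127 members (39.4%, Wilson 95% interval 31.3 to 48.1) had a region, against 63.0% of all 17395 named protein-coding genes. In CLBL-1 8.0, 83 members (65.4%, 56.7 to 73.1) had one, against 76.3%. Regions appeared solely in the resistant line for 36 members (28.3%, 21.2 to 36.7), against a background of 14.3%. They appeared solely in CLBL-1 for 3 members, RPL22L1, RPL26 and RPS29, against 1.08%. The count for the resistant line can hold only genes without a CLBL-1 region, which were a larger share of members than of named genes. The shares of 28.3% and 14.3% were not adjusted for this. The members had 0.512 and 1.24 regions per gene in the parental and the resistant line, while all named genes had 2.50 and 3.88. Gene length was not matched in these comparisons.

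The lists held 65 member regions for CLBL-1 and 157 for CLBL-1 8.0, a ratio of 2.42 (95% interval 1.80 to 3.28, from counts alone), while that of all named genes was 1.56. Region numbers were higher in CLBL-1 8.0 for 58 members (45.7%, 37.3 to 54.3), close to the background of 51.0%. They were lower for 4 members (3.15%), against 6.95%, and equal for 24. With the CLBL-1 8.0 list shortened to the length of the CLBL-1 list, by leaving out regions with a fold enrichment below 4.23, the ratio was 1.72 for members and 1.01 for named genes. Above the pooled median fold of 5.28 the ratios were 1.79 and 1.21. Chromosomes 6, 12, 14 and 27, which had the highest ratios of region numbers in the whole lists, held 5 and 11 member regions, and without them the ratio was 2.43.

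**Figure D1:**
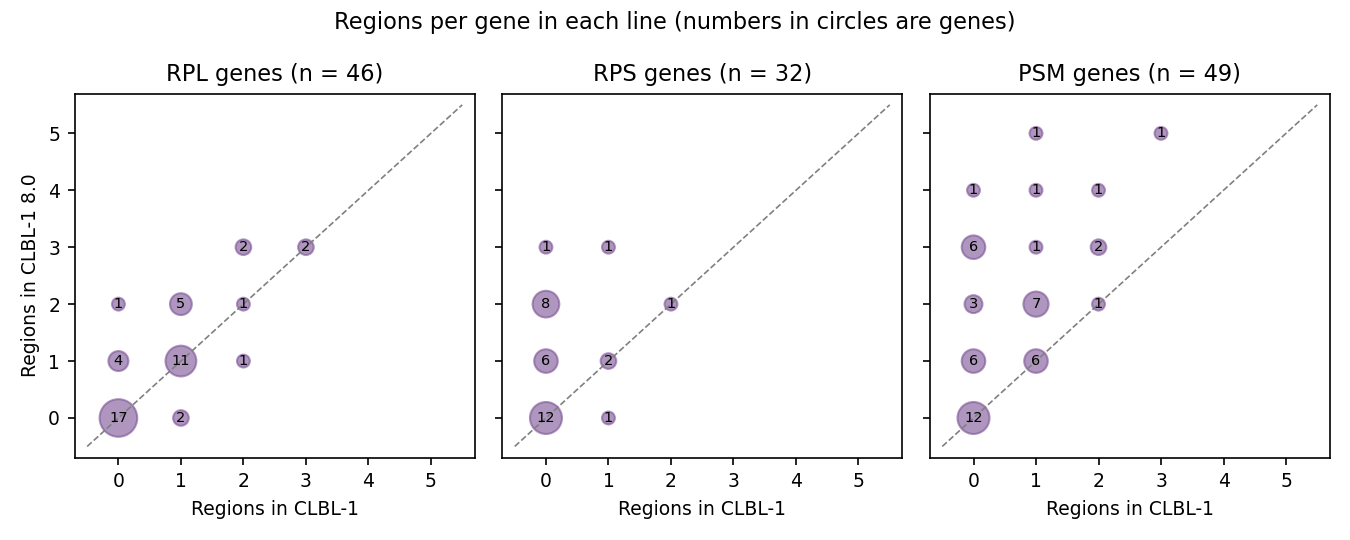
Number of regions in CLBL-1 (horizontal) against CLBL-1 8.0 (vertical) for each RPL, RPS and PSM gene; the number in a circle is the number of genes, and the dashed line marks equal numbers. Only 4 genes lie below the line, and 12 RPS and 12 PSM genes have no region in either line.

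The subunits differed in how far the lists diverged. Small subunit genes, by which all RPS symbols are meant here, had 6 regions in 5 of 32 genes in CLBL-1. In the resistant line they had 32 regions in 19 genes, a ratio of 5.33, which was 3.17 with lists of equal length. Above the pooled median fold they had 4 and 12 regions. Large subunit genes had 32 regions in 24 of 46 genes and 42 regions in 27 genes, a ratio of 1.31. Proteasome genes had 27 regions in 21 of 49 genes and 83 regions in 37 genes, a ratio of 3.07. Of the small subunit regions of CLBL-1 8.0, 78.1% (61.3 to 89.0) met no CLBL-1 region, with at least 1 bp in common counted as met. This share was 31.0% (19.1 to 46.0) for the large subunit and 63.9% (53.1 to 73.4) for the proteasome, against 40.7% for the regions of all named genes. The intervals of the small and the large subunit do not overlap, but regions of 1 gene share a locus and are not independent. Unmet member regions of CLBL-1 8.0 were shorter than met ones, with median lengths of 318 and 533 bp. Their fold enrichment was lower, at median percentiles of 47.5 and 72.3 of the list. For named genes the lengths were 315 and 560 bp and the percentiles 44.4 and 54.1.

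Promoters followed the same order. The tables flag a region as promoter when it overlaps the transcription start or the 3000 bp upstream of it. Promoter regions were listed for 30 members (23.6%, 17.1 to 31.7) in CLBL-1, against a background of 28.8%. In the resistant line 50 members (39.4%, 31.3 to 48.1) had one, against 35.7%. Among small subunit genes the numbers were 3 and 14 of 32, among large subunit genes 17 and 17 of 46, and among proteasome genes 10 and 19 of 49. The promoter was listed solely in the resistant line for 24 members (18.9%, 13.0 to 26.6), against 9.34% of named genes, and solely in CLBL-1 for 4, against 2.41%. The small subunit supplied 12 of the 24, the proteasome 10 and the large subunit 2. With lists of equal length, the small subunit still had 3 and 11 genes with a promoter region, and above the pooled median fold 2 and 8.

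**Figure D2:**
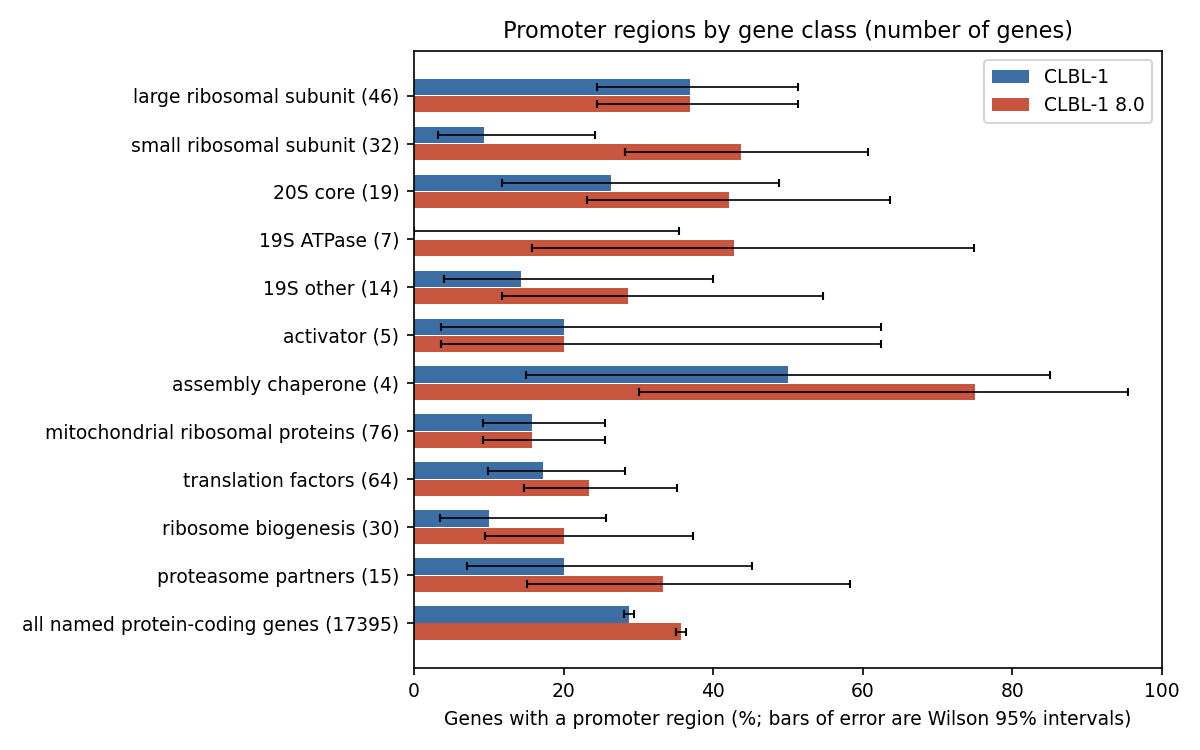
Share of genes with a promoter region in each class, in percent, with Wilson 95% intervals; blue bars are CLBL-1 and red bars CLBL-1 8.0, and the number of genes stands in brackets. The small ribosomal subunit went from 3 to 14 of 32 genes, while the large subunit had 17 of 46 and the mitochondrial ribosomal proteins 12 of 76 in both lines.

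The lists of related genes were counted in the same way. Mitochondrial ribosomal proteins (MRPL and MRPS genes), which build the separate ribosome of that organelle, had a promoter region in 12 of 76 genes in each line, of which 9 were shared. Translation factors (EIF and EEF genes) had one in 11 and 15 of 64 genes, and ribosome biogenesis genes in 3 and 6 of 30. Partners of the proteasome, such as its shuttle receptors and the transcription factors NFE2L1 and NFE2L2, had one in 3 and 5 of 15. Of 7 further ribosomal proteins whose symbols the rule does not take, such as RPLP0 and RPSA, no promoter was listed in the parental line and 1 was listed in the resistant one. The ratio of region numbers was 1.65 for mitochondrial ribosomal proteins, 1.75 for biogenesis genes, 2.25 for proteasome partners and 2.52 for translation factors, so that of the members was not the highest. No test compared these lists with the members.

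Around the transcription start the members showed a different profile of capture from all named genes. By position, with any region of the list counted, 7 of 86 members (8.14%, 3.999 to 15.9) had their start covered in each line. Of 13458 named genes, 20.1% (19.4 to 20.8) and 19.5% (18.8 to 20.2) had it covered. Coverage of named genes was highest 200 bp downstream of the start, at 23.3% and 23.7%. From 1000 to 3000 bp upstream, 22 members (25.6%, 17.5 to 35.7) had a region in the parental line and 44 (51.2%, 40.8 to 61.4) in the resistant one, while named genes went from 20.1% to 28.3% (27.6 to 29.1). From 1000 to 3000 bp downstream, it was 9 and 17 members (10.5% and 19.8%), against 26.5% and 33.9% of named genes. Among 46 mitochondrial ribosomal protein genes, 10 and 13 had a region in the upstream window, and 1 and 2 had the start covered. A start position is known only for genes with a row in either list, so these shares leave out the 41 members without a region.

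**Figure D3:**
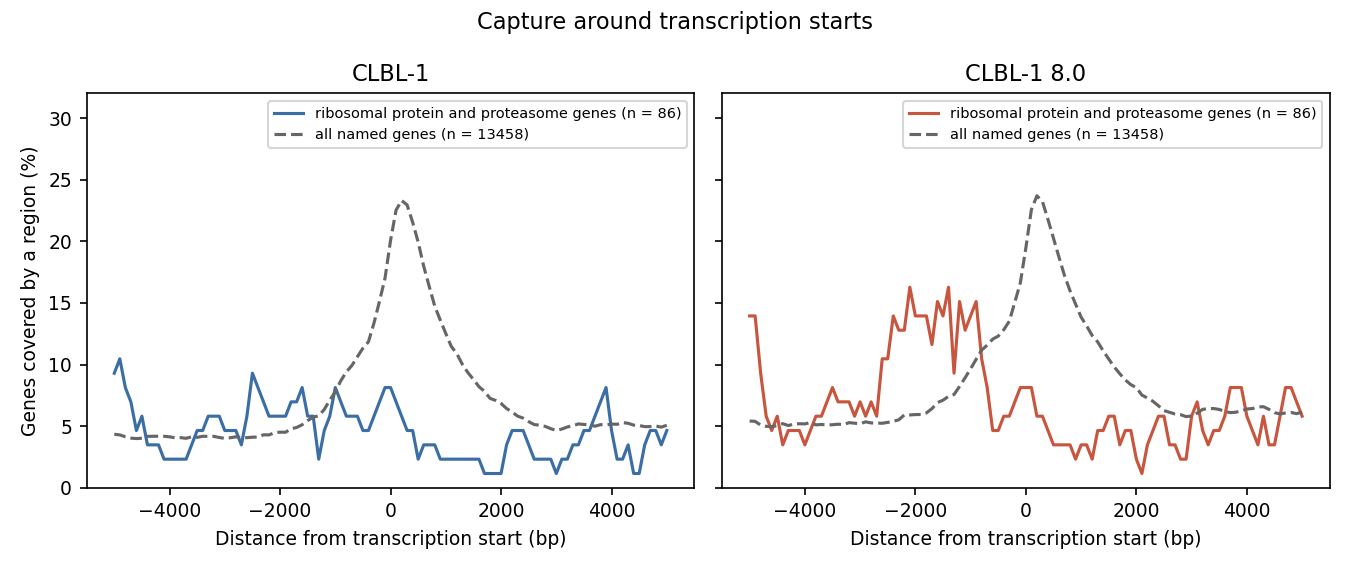
Share of genes covered by a region at each distance from the transcription start, in percent in steps of 100 bp, for 86 members (solid) and 13458 named genes (dashed), in CLBL-1 (left) and CLBL-1 8.0 (right). The named genes peak at 23.3% and 23.7% just downstream of the start. The members of CLBL-1 8.0 are highest upstream, at 16.3% of genes both 1400 and 2100 bp before the start.

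Member regions lay close to their starts. The tables measure the distance from the lower coordinate of a region, and its median was 2759 bp (quartiles 1396 and 7187) in CLBL-1 and 3450 bp (1753 and 8304) in the resistant line. Ribosomal protein regions lay at 2160 and 2591 bp, and proteasome regions, whose genes have more intronic regions, at 3905 and 5854 bp. Regions of named genes lay at medians of 23580 and 27560 bp, and 59.6% and 64.8% of them were intronic. Gene length was not matched here either, so these distances cannot be told apart from a difference in gene length. Of the member regions, 21.5% and 31.2% were intronic, 47.7% and 40.8% upstream, and 10.8% and 8.92% in coding sequence, while 13 and 27 regions lay downstream of the gene. None lay in the 5′ untranslated region in either line (upper limits of the intervals 5.58% and 2.39%). The shares for named genes, 2.52% and 1.91%, were within these intervals.

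**Figure D4:**
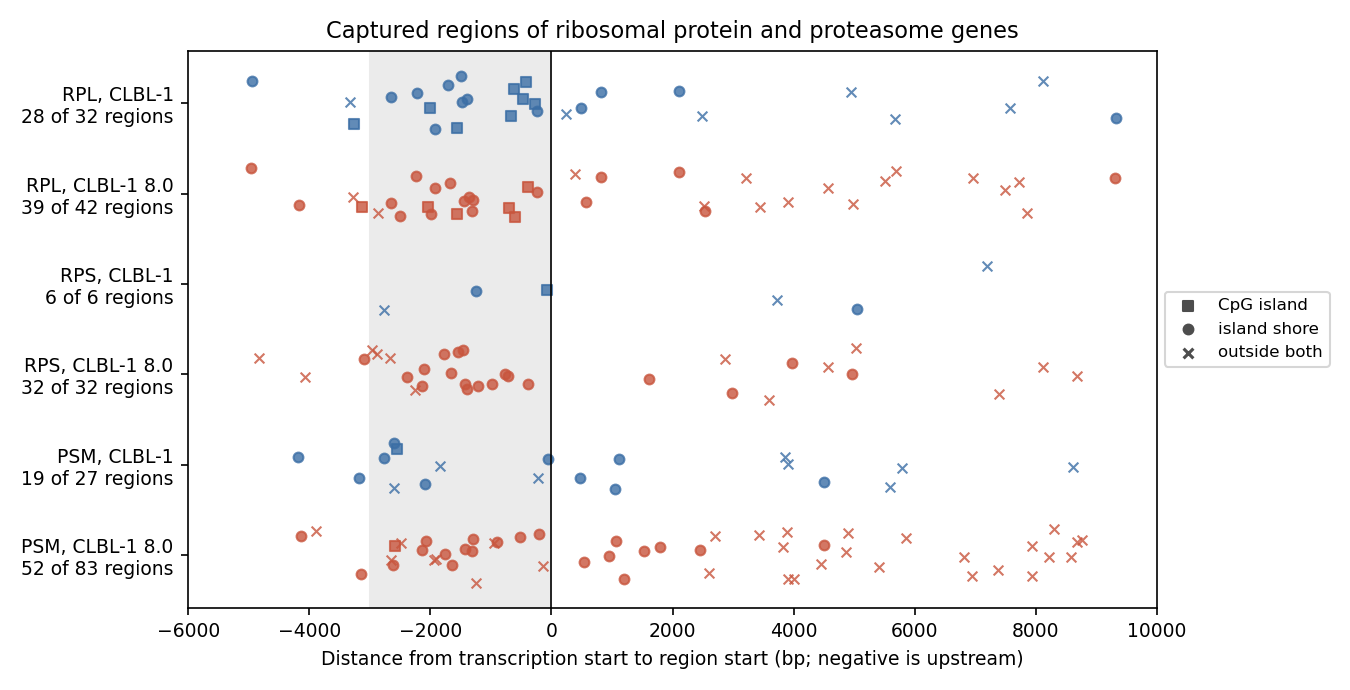
Distance of each member region from its transcription start, in bp, by gene family and line, for the regions within the plotted range; squares are CpG islands, circles island shores and crosses regions outside both, and the shaded band is the 3000 bp upstream. The RPS row of CLBL-1 8.0 shows 32 regions, many of them shore regions in the band, against 6 in CLBL-1.

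The start itself carried a region in both lines in 7 members, of which 3 were tissue-restricted paralogs. The fold enrichment is the authors' value per region, its percentile is the rank within its own list, and coordinates of regions found in both lines are those of the CLBL-1 list. RPL10L, the testis paralog of RPL10, had a region over its start at chromosome 8, 23672591 to 23673522 (CanFam3.1), with a fold of 16.1 in CLBL-1 (percentile 94.1) and 11.98 in CLBL-1 8.0 (95.9). PSMA8, the testis counterpart of the core subunit PSMA7, had one at chromosome 7, 62472519 to 62473289, with folds of 16.3 (percentile 94.6) and 12.8 (97.0). PSMB11, the core subunit of thymic cortical epithelium, had one at chromosome 8, 3355190 to 3356367, with folds of 7.74 (64.3) and 7.72 (82.4). All 3 regions were in island shores and lay over the start in both lists.

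The other 4 starts belonged to broadly expressed genes. RPL32, a large subunit gene, had a shore region (chromosome 20, 5726960 to 5727688) with folds of 14.7 and 10.3, at percentiles 91.2 and 92.7. RPL34, also of the large subunit, had a region in its coding sequence outside islands and shores (chromosome 25, 18586865 to 18587228), with folds of 6.78 and 10.1, at percentiles 57.5 and 92.2. RPL10, on chromosome X, had an island region of low fold, 2.29 and 2.55, at percentiles 2.37 and 4.73. PSMG4, an assembly chaperone gene, had a region outside islands and shores with folds of 4.85 and 3.92. In the whole lists, 14.9% and 14.5% of named genes carried a start region, against 8 and 7 members (6.30% and 5.51% of 127). The other start flagged in CLBL-1 was that of RPS29, whose region ended short of it.

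RPS29, a small subunit gene mutated in some families with Diamond-Blackfan anaemia in humans, had the highest fold among the 4 CLBL-1 member regions that no region of the resistant line met. It lay in a CpG island at chromosome 8, 26223658 to 26224004, lay 78 bp upstream of the start and had a fold of 15.9 (percentile 93.8). No other region was listed for the gene in either line. RPL26, a large subunit gene, had an island region 265 bp upstream (chromosome 5, 33158502 to 33158857) with a fold of 3.73, at percentile 20.1, that also met no region of CLBL-1 8.0. RPL22L1, a paralog of RPL22, and PSMB3, a core subunit gene, were listed in CLBL-1 only as promoters, but regions of CLBL-1 8.0 assigned to neighbouring genes met theirs. By position, therefore, 2 of the 4 promoters had no counterpart. The other member regions of CLBL-1 with no counterpart were 1 in the coding sequence of RPS7 (4.44) and 1 downstream of RPL3L, a paralog of RPL3 known from muscle in mouse and human (3.47).

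The 24 promoters listed in CLBL-1 8.0 only had 29 promoter regions, of which 22 were in shores, 7 outside islands and shores, and none in an island. Their lower coordinates lay at a median of 1643 bp from the start, between 384 and 3089 bp, with folds from 3.05 to 8.23 and a median of 4.99. By position, no CLBL-1 region lay in the promoter window of any of the 24 genes, and 28 of the 29 regions met none.

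The RPS symbols among them included RPS6, RPS9, RPS10, RPS13, RPS14, RPS24, RPS25, RPS26, RPS27L and RPS19BP1. RPS6, the substrate of the S6 kinases, had a shore region 767 bp upstream with a fold of 3.799 (percentile 24.4). RPS9 had a shore region 2109 bp upstream with a fold of 6.01, and RPS26 one 1422 bp upstream with 6.16. These values lay between percentiles 24.4 and 68.7 of the list, so none was among its strongest regions.

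RPS24 and RPS25, each with 2 shore regions in the promoter window, reached folds of 5.34 and 4.88. RPS27L, a paralog of RPS27 induced by p53 in human cells, had a shore region 384 bp upstream (chromosome 30, 27753610 to 27754023), with a fold of 7.06. Its other promoter region lay 976 bp upstream, with a fold of 4.15. RPS14, the gene lost in the human 5q- syndrome, had a region outside islands and shores 2674 bp upstream with a fold of 4.43, and RPS10 one 2256 bp upstream with 3.17. RPS13 (3.799) and RPS19BP1 (5.32), which encodes a binding partner of RPS19, had shore regions. RPS19BP1 was the only one of the 12 with a CLBL-1 region assigned to it, which lay downstream of the gene.

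The proteasome genes in this group came from every part of the complex except the PSME activators. In the core, PSMA1 had 2 shore regions with folds of 6.52 and 3.05, PSMB4 had 4.99 and PSMB7 had 4.11, all in shores. PSMB10, a catalytic subunit of the immunoproteasome, had a region outside islands and shores 1936 bp upstream with a fold of 3.56 (chromosome 5, 81558814 to 81559146). The ATPase genes PSMC1 (6.25), PSMC2 (4.75) and PSMC3 (4.85) had no promoter region in CLBL-1, and PSMC6 had no region in either line.

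PSMD9, a chaperone of the regulatory particle, had the highest fold of the 29 regions, 8.23 at percentile 85.1, in a shore 1319 bp upstream (chromosome 26, 7401974 to 7402326). PSMD14, which encodes the deubiquitinase that removes ubiquitin chains from substrates, had a region outside islands and shores with a fold of 4.75. PSMG2, a chaperone that pairs with PSMG1, had a shore region with a fold of 5.38. The 2 large subunit genes were RPL35A, with a shore region of fold 5.38, and RPL9, with a region outside islands and shores of fold 5.698.

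The 26 promoters listed in both lines, 15 of them of the large subunit, held the strongest regions. RPL7 had an island region 2010 bp upstream (chromosome 29, 21886411 to 21886990) with a fold of 22.02, at percentile 99.9 of CLBL-1, and 16.4, at percentile 99.5 of CLBL-1 8.0. RPL17 had a shore region 1476 bp upstream with folds of 19.3 and 14.2, and RPL13A an island region 476 bp upstream with 18.2 and 8.81. RPL37 had 1 shore region in the parental line (16.2) and 2 in the resistant line (6.19 and 11.4), both of which met it. These 4 genes stood at percentile 94.2 or above in CLBL-1, while RPL18 (4.07, percentile 25.4) and RPL38 (4.79, percentile 36.8) were in its lower part.

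RPS23 and RPS7 were the only small subunit genes with a promoter region in both lines, with RPS23 at folds of 9.84 and 8.86 in a shore. Of the proteasome, PSMA6 (13.6 and 11.7), PSME1 (14.1 and 7.69), PSMD13 (10.3 and 5.29) and PSMD4 (4.75 and 4.96) had the same position captured in both lines. PSME1 encodes an interferon-induced activator subunit, and PSMD4 a ubiquitin receptor. PSMA7 had an island region of low fold, 2.55 and 2.10. The folds of the 2 lists are given side by side, and they do not compare methylation between the lines.

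Island status of member regions followed these positions. In CLBL-1, 11 of 65 regions (16.9%, 9.72 to 27.8) met a CpG island, 28 (43.1%, 31.8 to 55.2) a shore and 26 (interval 29.0 to 52.1%) neither. In CLBL-1 8.0, 7 of 157 regions (4.46%, 2.18 to 8.92) met an island, 62 (39.5%, 32.2 to 47.3) a shore and 88 (56.1%, 48.2 to 63.6) neither. For named genes the shares in shores were 40.4% and 27.6%, so that the share for named genes lay within the members' interval in CLBL-1 and below it in CLBL-1 8.0. In islands the shares for named genes were 14.8% and 10.5%, the second of which lay above the members' interval. Outside islands and shores they were 44.8% and 61.9%, both within the members' intervals. Ribosomal protein regions held 10 and 6 of the island regions, and the proteasome 1 in each line, that of PSMA7.

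Among the regions of CLBL-1 8.0 that no CLBL-1 region met, 91 belonged to members. Of these, 31 (34.1%, 25.2 to 44.3) lay in shores and none in an island (upper limit of the interval 4.05%), while 10.4% of such regions of named genes lay in shores. Of those, 1.70% met an island, which is within the members' interval. Promoters made up 34.1% of the 91, against 6.48%. Among the regions of CLBL-1 8.0 that were met, promoters made up 43.9% for members and 13.8% for named genes. Of the 31 unmet promoter regions of members, 24 (77.4%, 60.2 to 88.6) were in shores, against 51.1% (48.8 to 53.4) for named genes. Among all promoter regions of CLBL-1 8.0, 51.7% (39.3 to 63.8) of those of members and 24.4% of those of named genes met no CLBL-1 region. In CLBL-1 the unmet regions were 4 of the 65 (6.15%, 2.42 to 14.8), against 9.13% of those of named genes, and 3 of the 4 lay in islands.

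**Figure D5:**
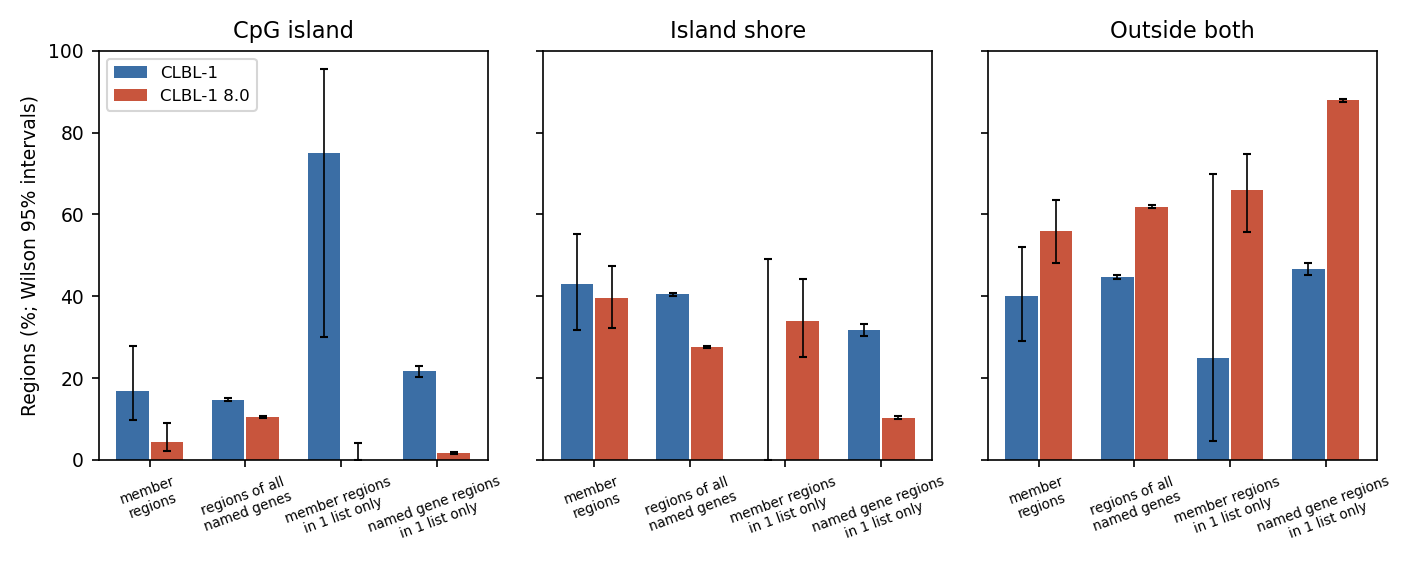
Share of regions in CpG islands, island shores and outside both, in percent with Wilson 95% intervals, for member regions and regions of all named genes, and for those that no region of the other list met; blue is CLBL-1 and red CLBL-1 8.0. Of the member regions in CLBL-1 8.0 only, 34.1% lie in shores, against 10.4% for named genes; the CLBL-1 bars in the same group rest on 4 regions.

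In their introns, proteasome genes had 8 regions in the parental and 40 in the resistant line, while all named genes had 25846 and 43723. Of the 83 proteasome regions in CLBL-1 8.0, 57 (68.7%, 58.1 to 77.6) lay outside islands and shores. For regions of all named genes in that line this share was 61.9%, within the interval, and the intronic share was 64.8%, against 48.2% for the proteasome. PSMB7, a catalytic core subunit gene, had 1 and 5 regions, the strongest being an intronic one 37406 bp from the start with a fold of 6.96. PSMG4 had 3 and 5 regions, PSMD5 had 2 and 4, and PSME4, which encodes a nuclear activator, had 1 and 4. RPL28 and RPL38, both of the large subunit, had 3 regions in each line.

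Members without a CLBL-1 region that had intronic regions in CLBL-1 8.0 included PSMA5, with 3 regions and a highest fold of 6.77, PSMB2 with 3, and PSMD11 with 2 intronic regions and 1 in its 3′ untranslated region. PSMD7 had an intronic region and one downstream with a fold of 7.28. PSMB9, a catalytic subunit of the immunoproteasome next to the antigen-processing genes in other mammals, had a coding and a downstream region, with folds of 6.01 and 4.03. PSMA5 lies on chromosome 6 and PSMB9 on chromosome 12, which are among the chromosomes with the highest ratios of region numbers.

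At least 1 region in either line was listed for 86 of 127 members and for 13458 of 17395 named genes. The 41 members with no region in either line were 17 large subunit, 12 small subunit and 12 PSM genes. They included RPL3, RPL4, RPL5 and RPL11, of which RPL5 and RPL11 bind MDM2 when ribosome assembly is disturbed, as known from human cells. RPS2, RPS3A, RPS15 and RPS27A were among the small subunit genes, the last encoding a fusion with ubiquitin. Of the PSM genes, PSMB5, the core subunit bound by bortezomib, the immunoproteasome gene PSMB8 and the activator gene PSME2 had none.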

How the data were processed

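MethylCap-seq libraries of CLBL-1 and CLBL-1 8.0 were used as 1 deposited region table per line. BWA, MACS2 and CanFam3.1 are named in the submitters' processing notes, with no version, role or setting. The fold enrichment is a linear ratio per region made by the authors, per the file headers, over a background they do not name. It was used to describe or rank regions within a list, and to filter them in 2 alternatives. Whether the 2 eluates of a line were pooled is not stated. Distance, location class and flags are the deposited ones. Rows with displaced cells, 2 and 6, were kept without a gene. Regions with both an island and a shore flag, 40 and 34 in the whole lists, were counted as island.

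From these tables the start of each gene, overlaps between lists and coverage around starts were computed with Python 3.11.15, pandas 2.3.3, numpy 2.4.6 and scipy 1.17.1. Overlap and distance code was tested on simulated data. Wilson intervals came from statsmodels 0.14.6 and plots from matplotlib 3.10.9. Symbols of 17395 named protein-coding genes came from the RefSeq annotation of UU_Cfam_GSD_1.0, used for names only. It held 126 member symbols, and RPL23A was added from the tables. Depth per library is unknown, so precision beyond counting error cannot be given.

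Genes named in the text were those with a promoter or start region in either list, unmet regions of the 5 highest folds per list, and the 5 members with the most regions. Other genes are named as examples and were chosen after their values were seen. Members, lists and comparisons were chosen with earlier results of these data known. Alternatives were a fold limit, other member and promoter definitions, an overlap of at least 50% of a region and lists of equal length. No sequence of these regions is shown, since a CanFam3.1 genome was not used here. A few genes are not reported here by name.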

Additional observations from a re-analysis of the deposited data

How the results depend on the processing

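No paired analysis was possible because each line has 1 library per eluate and no result comes from a test. Counting as promoter a region that began within 1000 bp of the start gave 13 members in CLBL-1, 15 in CLBL-1 8.0 and 5 in CLBL-1 8.0 only. This leaves out most of the upstream shore regions by construction. Above the pooled median fold, 32 members had a promoter region in CLBL-1 8.0, 15 of them in CLBL-1 8.0 only, 5 members had a region in CLBL-1 only, and the ratio of member regions was 1.79. Promoter regions in CLBL-1 went from 30 to 20 members there, and the promoters in CLBL-1 8.0 only were 7 of the small subunit, 4 of the large subunit and 4 of the proteasome. Proteasome genes with a promoter region were then 6 and 9. With as many regions in both lists the ratio was 1.72, and 23.1% of CLBL-1 member regions met no CLBL-1 8.0 region, because CLBL-1 8.0 alone lost regions. Promoters in CLBL-1 only then went from 4 to 9 members, and those in CLBL-1 8.0 only were 9 of the small subunit, 2 of the large subunit and 8 of the proteasome. By position, 2 promoters were in CLBL-1 only. The remaining alternatives were an overlap of at least 50% of a region, members without paralogs and genes that encode no subunit, and chromosomes 6, 12, 14 and 27 left out. These 3 alternatives moved no number of members with a region or a promoter region by more than 1.5 times. Without paralogs and genes that encode no subunit, however, members with a start region went from 8 to 4 in CLBL-1. In CLBL-1 8.0 they went from 7 to 3. That alternative left out the PSMG chaperones but kept PSMD9, a chaperone of the regulatory particle. Promoters by position and the chromosomes left out were chosen after seeing the data. The unknown depth limits every absence from a list.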

Other observations

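Loci without a gene symbol, which the tables describe as cytosolic ribosomal proteins or similar to them, were not members and are given here as values. There were 22 such loci, 12 of them in both lists, with 13 regions in CLBL-1 and 26 in CLBL-1 8.0. None of these regions met a CpG island (upper limits of the Wilson 95% intervals 22.8% and 12.9%), and 10 and 22 lay outside islands and shores. A start flag was carried by 7 of the 13 regions (53.8%, 29.1 to 76.8) and by 10 of the 26 (38.5%, 22.4 to 57.5), while 8 of 65 and 7 of 157 member regions carried one. LOC100856765, described as similar to ribosomal protein L4, had a region over its start on chromosome 27 with folds of 11.5 (percentile 82.3) in CLBL-1 and 9.86 (91.5) in CLBL-1 8.0. LOC111091674, described as similar to ribosomal protein SA, had one on chromosome 22 with folds of 8.14 and 10.8. LOC100855430, described as similar to ribosomal protein S29, had a region over its start in CLBL-1 8.0 only, on chromosome 10, with a fold of 5.38, while the start region of RPS29 itself, on chromosome 8, was listed in CLBL-1 only. Whether reads of RPS29 and of this locus can be told apart was not tested.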
